A study of Mus musculus with 4 samples.

Results

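The G1 cyclins and their inhibitors were followed through mouse preimplantation development as 9 genes of the 20171 in the gene table. They were taken by symbol: the D-type cyclins Ccnd1, Ccnd2 and Ccnd3 with their kinase Cdk4, the E-type cyclins Ccne1 and Ccne2 with their kinase Cdk2, and the inhibitors Cdkn1a, which encodes p21, and Cdkn1b, which encodes p27. Ccnd2 and Cdkn1b had no isoform in the isoform table, and the other 7 genes accounted for 61 of its 68012 isoforms.

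A D-type cyclin with Cdk4 and an E-type cyclin with Cdk2 phosphorylate the retinoblastoma protein and its relatives, which frees E2F factors to switch on genes for DNA replication. p21 and p27 bind cyclin and kinase together and hold the pair inactive. The cleaving mouse embryo first runs on proteins and RNA stored in the egg, and its own genome is transcribed in earnest by the late 2-cell stage.

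Single blastomeres were amplified with 10x gel bead primers, which give each cell a barcode and each molecule a unique molecular identifier (UMI), and the full-length cDNA was sequenced by HIT-scISOseq on a PacBio instrument. Of the 161 cells, 10 were metaphase II oocytes of unmated females taken 20 h after human chorionic gonadotropin (hCG), and 9 were zygotes (22 to 24 h). A further 10 came from the early 2-cell stage (E2C, 30 to 32 h), 11 from the late 2-cell stage (L2C, 46 to 48 h), 17 from the 4-cell stage (54 to 56 h) and 26 from the 8-cell stage (68 to 70 h). The remainder were 38 cells of the 16-cell and 22 of the 32-cell stage (78 to 80 h), 13 early blastocyst cells (88 to 90 h) and 5 mouse embryonic stem cells (mESC), a cultured line. The embryos were crosses of C57BL/6J females with DBA/2 males (the strain is labelled DBA/2J x C57BL/6J, and the methods name DBA/2NCrl), the mice were 6 to 8 weeks old, all females were superovulated, and no group was otherwise treated or altered. In a separate run, 4 intact oocytes, 6 parts called 1/2 oocytes and 6 called 1/4 oocytes were read. Cell names give the embryo from oocyte to the 16-cell stage, so the embryo was the replicate: 10 oocytes, 9 zygotes, 5 embryos each at E2C and the 4-cell stage, 6 at L2C, and 4 each at the 8-cell and 16-cell stages. The 32-cell, blastocyst and mESC cells name no embryo and are given as ranges without a test.

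Levels are copies per 100,000 UMIs of a cell, averaged over the cells of an embryo. A copy is a molecule and is not divided by transcript length. A share of all UMIs also falls when other RNAs rise, and in these values less RNA of a gene and more RNA of other genes cannot be told apart. The depth was 4985 to 389775 UMIs per cell with a median of 38914, and was highest in oocytes and zygotes. The 5 oocyte markers summed to 1721 to 2395 copies in oocytes, 521 to 702 in E2C embryos and 12.5 to 182 in 16-cell embryos, but also to 54.6 to 112 in mESC, which should lack them. That was 2.77 to 5.66% of the oocyte median, and its part in the low late levels below was not tested. The L2C embryo 1 was a single cell of 17971 UMIs, and the 16-cell embryos 3 and 4 held 79331 and 82203 UMIs against 432283 and 589926 in the embryos 1 and 2.

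Across the 161 cells the UMIs were spread very unevenly over the 9 genes. Ccne1 had 1170 UMIs, Ccnd3 899, Cdk4 821, Ccne2 638, Cdkn1a 535 and Cdk2 304. In contrast, Ccnd1 had 24 UMIs, Cdkn1b 21 and Ccnd2 2. The latter 3 did not reach 1 copy in 4 embryos and were not tested, so 6 of the 9 genes stood among the 11682 tested.

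**Figure D1:**
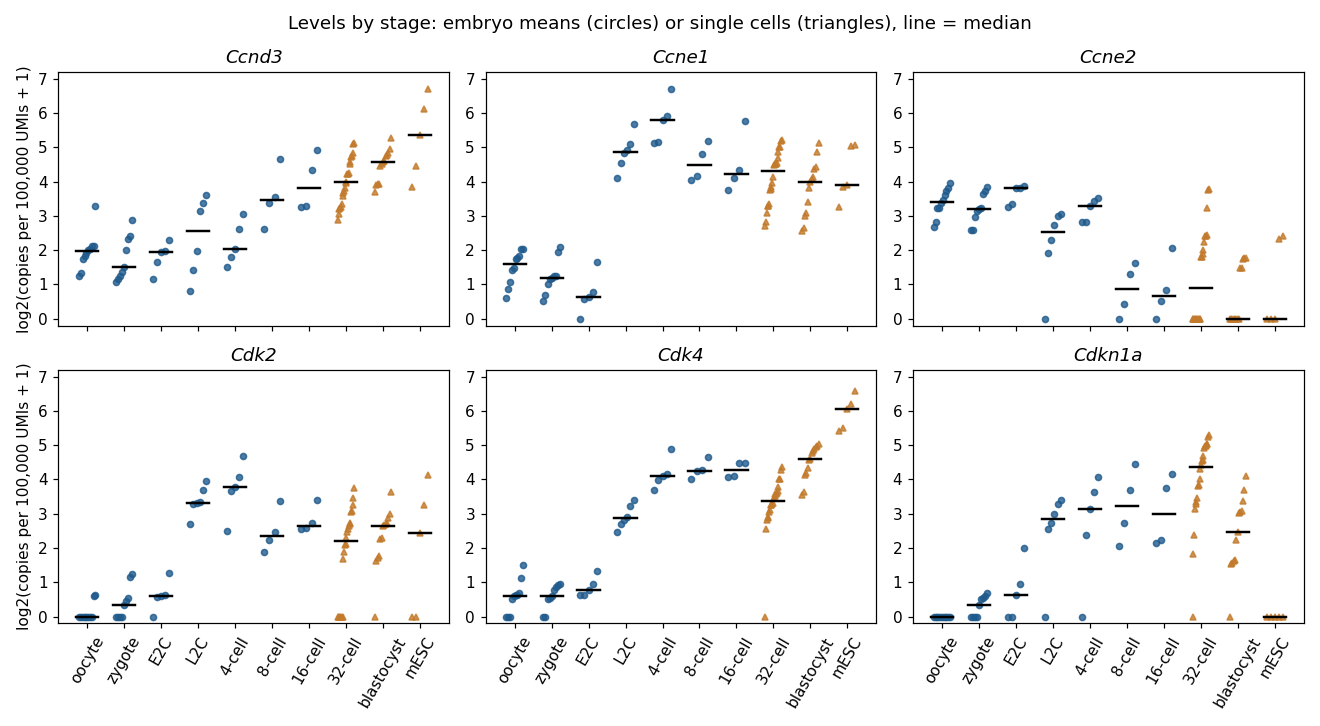
Levels of the 6 tested genes by stage on the log2(copies per 100,000 UMIs + 1) scale, with embryo means as circles, single cells of the 32-cell stage, blastocyst and mESC as triangles, and the median as a line. Until E2C, Cdk2 and Cdk4 sit near 0 and Ccne1 is low but above 0 in all oocytes and zygotes. Ccne1, Cdk2 and Cdk4 are higher in every L2C embryo, Ccne2 runs the other way, and Ccnd3 rises later.

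The 6 genes changed mainly at the E2C to L2C step. Of the 6, 4 were higher at L2C and 1 was lower, against 48.4% of all tested genes called in either direction at this step; their median log2 fold change was 2.07, and that of all genes was 0.03. Calling took a limma log2 fold change beyond 1 or -1 with p below 0.01 before adjustment, and the p-values printed are adjusted over all genes. From oocyte to zygote, 0 of 6 were called (3.24% of all genes), from zygote to E2C 0 (7.27%) and from the 8-cell to the 16-cell stage 0 (3.36%). At these 3 steps 0, 1 and 0 of the 6 had an unadjusted limma p under 0.05, and edgeR and DESeq2 called 0 at each. Between L2C and the 4-cell stage 1 of 6 was called (6.69% of all genes), and from the 4-cell to the 8-cell stage 3 of 6 (15%).

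**Figure D2:**
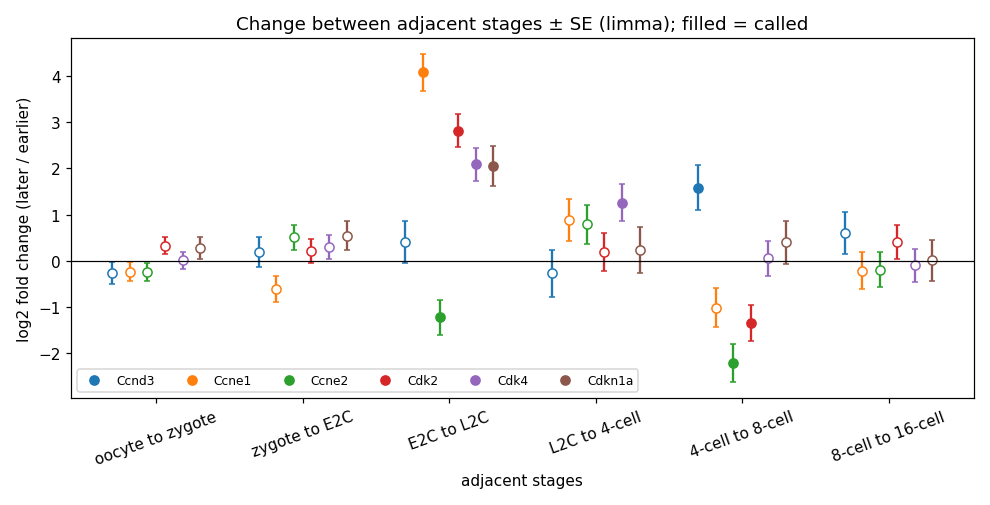
Log2 fold change of the 6 tested genes between adjacent stages, later over earlier, with the limma SE as bars and filled points for called changes. The filled points gather at E2C to L2C, where 4 genes lie above 0 and Ccne2 lies below it.

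Ccnd3 was the D-type cyclin of the embryo. It made up 89.5 to 100% of the Ccnd1, Ccnd2 and Ccnd3 UMIs at each stage, all 65 in oocytes and 280 of 285 at the 16-cell stage. Ccnd1 was found in 19 scattered cells with 24 UMIs, and Ccnd2 as 2 UMIs in 1 L2C cell.

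Ccnd3 was held at a low level from the oocyte to the 4-cell stage and was higher from the 8-cell stage on. Oocytes ranged from 1.39 to 8.77 copies with a median of 2.90, zygotes from 1.08 to 6.35 with a median of 1.83, and L2C embryos from 0.736 to 11.1 with a median of 5.44. The 4-cell embryos had 2.49, 7.34, 5.14, 1.87 and 3.10 copies, and the 8-cell embryos 9.46, 5.09, 10.8 and 24.3. The lowest 8-cell embryo thus lay within the range of the 4-cell embryos. Ccnd3 rose by 1.58 ± 0.49 (SE) on the log2 scale between these stages (n = 5 and 4, limma, adjusted p = 0.0174), from 3.99 ± 2.24 to 12.4 ± 8.28 copies (SD). The call rested on single embryos: without 4-cell embryo 4 the log2 change was 1.36 and without 8-cell embryo 4 it was 1.15, and neither was called. The 16-cell embryos had 19.2, 29.3, 8.69 and 8.61 copies. Single cells had 6.29 to 33.8 copies (median 14.7) at the 32-cell stage, 11.96 to 37.3 (median 22.9) in blastocysts and 13.2 to 104 (median 39.9) in mESC. From oocyte to the 16-cell stage Ccnd3 was higher by 2.23 on the log2 scale.

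Full-length reads assigned to an isoform showed which promoter was used. Ccnd3 lies at chr17:47505051-47599691 on the plus strand of GRCm38, and RefSeq gives it a far upstream and an internal start. Of the 495 Ccnd3 isoform UMIs, 446 began between positions 47593415 and 47593467, at the internal start. Within 500 bases of the upstream start at 47505051, 0 began. At the gene level Ccnd3 had 899 UMIs, and the starts of molecules without an assigned isoform are not known. The sequence before the internal start is shown because every full-length Ccnd3 molecule assigned to an isoform began downstream of it. It is 198 bases from RefSeq GRCm38.p6, chr17:47593217-47593414, plus strand, trimmed to end before the first base read in any isoform:
Ccnd3 internal promoter: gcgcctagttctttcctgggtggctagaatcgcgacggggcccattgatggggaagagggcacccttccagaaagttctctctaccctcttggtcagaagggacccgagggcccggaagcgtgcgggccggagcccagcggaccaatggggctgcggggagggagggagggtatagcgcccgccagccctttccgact

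A single 16-cell embryo carried a different Ccnd3 transcript. The main isoform, with 5 exons and the whole coding region of 292 residues, was outnumbered there by 3 isoforms of 2 exons that began at the same internal promoter and ended inside an intron, at positions 47595056, 47595158 and 47595487. None of these 3 held a complete coding region, and all 3 were spliced as the annotated transcript Ccnd3-206. In 16-cell embryo 2 they were 69 of 87 Ccnd3 isoform UMIs, which is 79.3% (exact binomial 95% interval 69.3 to 87.3%, counting error only). In the other 3 16-cell embryos they were 0 of 61 UMIs, which allows a share of up to 4.92%, and in all cells outside this embryo they were 8 of 408, or 1.96% (0.850 to 3.83%). The 69 UMIs were spread over 12 of the 15 cells of embryo 2, with at most 17 in a cell, and 6 of the 12 cells also held the 5-exon form. At the gene level Ccnd3 had 179 UMIs in embryo 2 and 85 in embryo 1, against 87 and 46 isoform UMIs. The form of the molecules without an assigned isoform is not known. The main isoform stood at 9.53, 2.22, 6.44 and 8.53 copies in the 4 16-cell embryos, lowest in embryo 2, where the gene as a whole was highest. The 2-exon forms stood at 12.9 copies in embryo 2 and at 0 in the other 3. This pattern was found after the values were seen and rests on 1 embryo, and no test across embryos that could have failed was made. Ccnd3 overlaps Bysl on the opposite strand, but all of these isoforms were spliced along the Ccnd3 annotation.

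**Figure D3:**
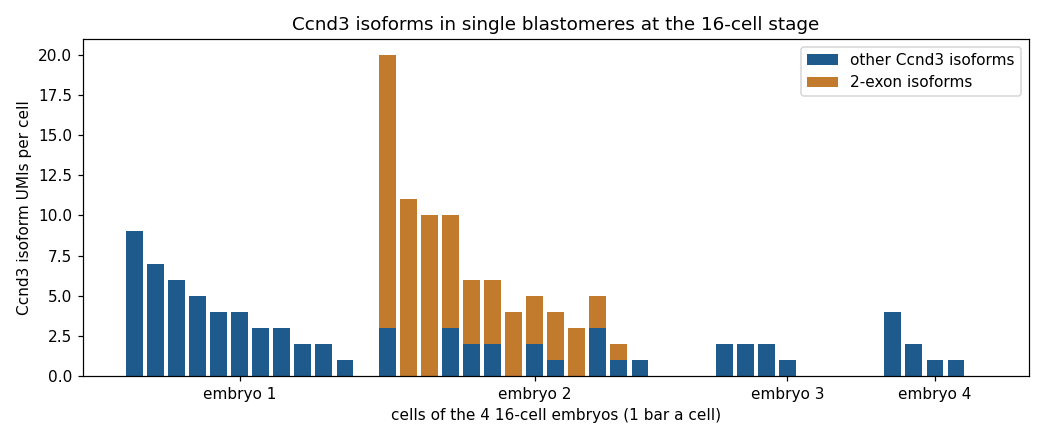
Ccnd3 isoform UMIs in each cell of the 4 16-cell embryos, with the 2-exon isoforms in orange and the other Ccnd3 isoforms in blue. The orange part appears in embryo 2 and in no cell of the other 3 embryos.

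Cdk4, the kinase that D-type cyclins activate, was higher at L2C than at E2C and again at the 4-cell stage, and no further change was called up to the 16-cell stage. It was at 0.547, 0.710, 0.948, 1.52 and 0.543 copies in the E2C embryos and at 4.48 to 9.53 with a median of 6.28 in L2C embryos. The 4-cell embryos had 17.0, 14.9, 16.3, 11.98 and 28.4 copies. No E2C embryo reached the lowest L2C embryo, and no L2C embryo reached the lowest 4-cell embryo. The first step was 2.09 ± 0.36 on the log2 scale (n = 5 and 6, limma, adjusted p = 1.20e-06). The second was 1.26 ± 0.40 (n = 6 and 5), which met the unadjusted limit alone (limma, adjusted p = 0.0713) and was not called without 4-cell embryo 5, when it was 0.98.

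The 8-cell embryos had 15.3, 24.2, 18.2 and 18.1 copies and the 16-cell embryos 15.8, 16.2, 21.2 and 21.4. Single cells ranged from 0 to 19.7 (median 9.44) at the 32-cell stage, from 10.6 to 31.6 (23.3) in blastocysts and from 42.1 to 94.7 (65.5) in mESC. All 5 mESC were above all 13 blastocyst cells, with no test since neither names an embryo. The main isoform, with 8 exons and the 303-residue coding region, rose at E2C to L2C (from 0, 0, 0.728, 0.809 and 2.19 to between 2.19 and 8.08 copies, limma, adjusted p = 0.00553, adjusted over all isoforms). A second form with the same introns ran 358 bases past the stop codon, against 257 in the main one, and held 167 UMIs against 342. Cdk4 overlaps Tspan31 on the opposite strand.

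The E-type cyclins changed places between E2C and L2C. Ccne1 supplied 5 of the 105 cyclin E UMIs in E2C embryos and 161 of the 190 in L2C embryos, 4.76% and 84.7%. Per embryo the Ccne1 share was 3.85 to 29.4% in oocytes, 3.57 to 36.4% in zygotes and 0 to 19.0% in E2C, and then 74.0 to 100% in L2C, 76.7 to 94.4% in 4-cell and 91.3 to 100% in 8-cell embryos. The ranges before and after this step did not overlap. Both cyclins are counted as molecules, and the share is not divided by transcript length. Whether length affected which molecules were read was not tested.

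**Figure D4:**
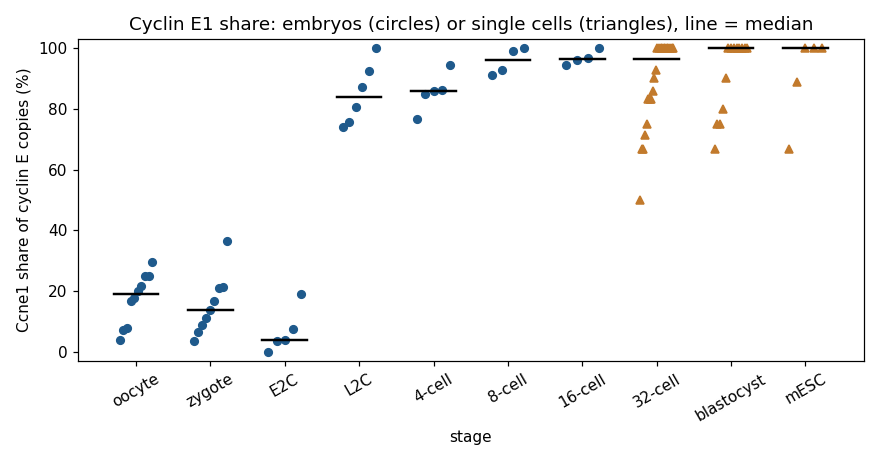
Share of Ccne1 among the Ccne1 and Ccne2 copies, in percent, for each embryo (circles) or single cell (triangles), with the median as a line. The 24 oocytes, zygotes and E2C embryos lie at or below 36.4%, and the 19 embryos from L2C to the 16-cell stage at or above 74.0%.

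Ccne1 had the largest rise of the 6 genes at this step. The E2C embryos had 0, 0.710, 0.545, 0.483 and 2.15 copies, and the L2C embryos ranged from 16.1 to 50.1 with a median of 28.2. The lowest L2C embryo was above the highest E2C embryo, and the change was 4.08 ± 0.39 on the log2 scale (n = 5 and 6, limma, adjusted p = 2.16e-13). The 4-cell embryos had 34.3, 59.7, 103.3, 34.5 and 54.5 copies, and their mean of 57.2 ± 28.2 was the highest stage mean of the 9 genes from oocyte to the 16-cell stage. The 8-cell embryos had 15.4, 27.2, 16.8 and 35.5 copies, a log2 difference from the 4-cell stage of -1.02 that was not called (limma, adjusted p = 0.0964), but was called without 8-cell embryo 4, at -1.29 (adjusted p = 0.0435). The 16-cell embryos had 19.3, 12.4, 16.3 and 53.7 copies. Cells of the 32-cell stage (5.48 to 36.0, median 18.9), the blastocyst (4.88 to 34.0, median 14.8) and mESC (8.61 to 32.8, median 14.0) had lower minima and medians within the range of the 16-cell embryos.

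Sister cells of an embryo differed in Ccne1 by several times. In 4-cell embryo 5 the 4 cells ran from 22.4 to 78.5 copies (9 to 33 UMIs), and in 8-cell embryo 2 the 8 cells ran from 12.6 to 52.7 (3 to 18 UMIs). In L2C embryo 6 both cells were close, at 26.5 and 28.0 copies. The part of counting error in this spread was not tested.

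Ccne1, at chr7:38097984-38107534 on the minus strand, was read in 15 isoforms. The main isoform has 12 exons and the whole 408-residue coding region and held 623 UMIs, and 14 of the 15 isoforms ended between 38097974 and 38097986. The main isoform was at 0, 0, 1.01, 0.703 and 3.36 copies in E2C embryos and at 9.23 to 24.2 in L2C embryos, without overlap (log2 change 3.10 ± 0.54, limma, adjusted p = 5.05e-06). Most other isoforms were incomplete at the 5′ side, with first bases scattered over the gene. Of the Ccne1 isoform UMIs 72.4% held the whole coding region.

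Ccne2 was the cyclin E of the egg. Oocytes had 5.40 to 14.6 copies (median 9.69), zygotes 5.04 to 13.3 (median 8.24), and the E2C embryos 13.2, 8.63, 13.0, 13.6 and 9.18. The L2C embryos had 0 to 7.30 with a median of 4.80, all below every E2C embryo. Ccne2 fell by 1.22 ± 0.37 on the log2 scale (n = 5 and 6, limma, adjusted p = 0.00411). The 4-cell embryos had 6.12, 9.79, 6.13, 10.5 and 8.71 copies, a mean of 8.24 ± 2.03 against 4.44 ± 2.80 at L2C, which was not called. It then fell by 2.21 ± 0.40 to 1.48, 2.11, 0 and 0.335 copies in the 8-cell embryos (limma, adjusted p = 4.65e-05), again without overlap. The 16-cell embryos had 0.776, 0.424, 0 and 3.22 copies, blastocyst cells 0 to 2.44 with a median of 0, and the 5 mESC 2 UMIs in all. From oocyte to the 16-cell stage the log2 change was -2.58.

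Among the Ccne2 molecules assigned to an isoform, the 3′ ends differed between the egg and the later embryo. Ccne2 lies at chr4:11191351-11204779 on the plus strand. Its 2 most used full-length isoforms share all introns and the 404-residue coding region but run 584 and 1394 bases past the stop codon. Neither of the end signals AATAAA and ATTAAA stood in the last 30 bases of these 2 isoforms. Of the 20 bases after the end, 8 were A for the shorter and 4 for the longer isoform. Whether these are true transcript ends was not tested.

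Molecules ending at the proximal end, between 11203628 and 11203744, were 114 of 123 Ccne2 isoform UMIs in oocytes, 114 of 126 in zygotes and 39 of 46 at E2C. They were 4 of 12 at L2C and 5 of 21 at the 4-cell stage. Molecules ending at the distal end were 3 of 123, 1 of 126 and 0 of 46, and then 8 of 12, 15 of 21 and 3 of 4 at the 8-cell stage. Pooled from oocyte to E2C the distal end had 1.36% of UMIs (exact binomial 95% interval 0.371 to 3.43%) and from L2C to the 8-cell stage 70.3% (53.02 to 84.1%). These isoform UMIs cover part of the gene. At the gene level Ccne2 had 200 UMIs in oocytes, 218 in zygotes and 100 at E2C. It had 29 at L2C, 47 at the 4-cell stage and 9 at the 8-cell stage. The ends of molecules without an assigned isoform are not known.

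The isoform tests gave the same split in copies. The proximal isoform was at 3.51, 0.929, 5.93, 7.41 and 6.72 copies in E2C embryos, was at 0 in 5 of 6 L2C embryos and was 0.908 in 1, and its fall was called (limma, adjusted p = 0.000330, adjusted over all isoforms). The distal isoform was at 0 in all 5 E2C embryos and in 2 of 6 L2C embryos, and was 1.56 to 3.55 in the other 4, a rise that was called (limma, adjusted p = 0.00476). From the 4-cell to the 8-cell stage the distal isoform fell from 2.18, 0, 1.79, 5.42 and 2.81 to 0.456, 0.556, 0 and 0.381 copies (limma, adjusted p = 0.00698).

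The oocytes of the separate run did not show the same ends. In its 4 intact oocytes the distal end had 27 of 104 Ccne2 UMIs, 26.0%, with 22.2 to 35.7% per oocyte, and the proximal end had 56.7%. The 1/2 oocytes had 20.7% distal and the 1/4 oocytes 26.3%. In the first 3 runs no oocyte was above 10% distal. The share of distal ends in oocytes therefore differed between this run and the first 3. Within runs 1 to 3, the oocytes (5, 1 and 4) and zygotes (4, 2 and 3) came from every run. None of them was above 10% distal. The later embryos with the higher shares also came from these 3 runs, but the run of each is not known. Stage and run therefore cannot be told apart after the zygote. Why the oocytes of the separate run differed was not tested. The oocyte level of Ccne2 itself was close in both sets, with a median of 10.7 copies in the separate run. Ccne2 overlaps Ints8 on the opposite strand.

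**Figure D5:**
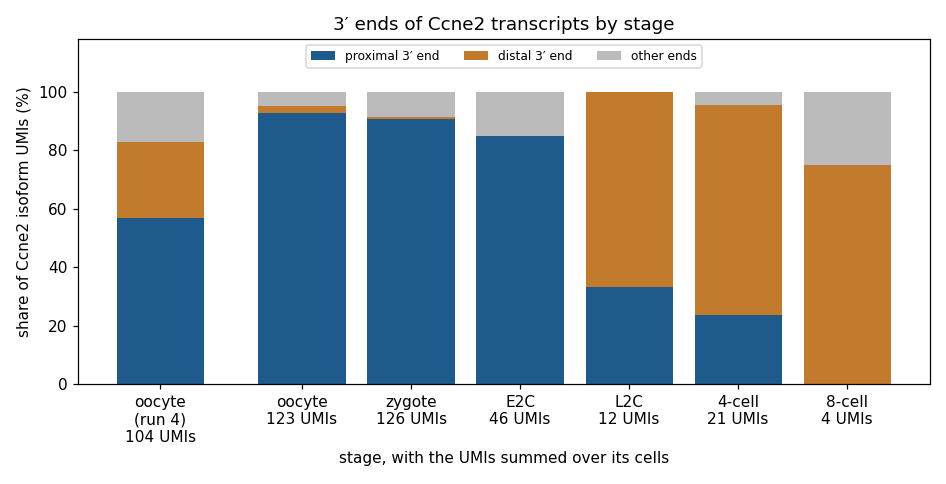
Share of Ccne2 isoform UMIs, in percent, ending at the proximal (blue), the distal (orange) or another 3′ position (grey), for the 4 intact oocytes of the separate run (left) and for each stage of the first 3 runs. The orange part is under 3% until E2C and 66.7% at L2C in the first 3 runs, and is 26.0% in the oocytes of the separate run.

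Cdk2, the kinase of the E-type cyclins, rose with Ccne1. The E2C embryos had 0.547, 0.526, 1.42, 0.483 and 0 copies and the L2C embryos 5.57 to 14.4 with a median of 9.0, with no overlap. The change was 2.81 ± 0.36 on the log2 scale (n = 5 and 6, limma, adjusted p = 1.31e-09). The 4-cell embryos had 4.62, 25.0, 12.8, 15.8 and 11.7 copies and the 8-cell embryos 3.72, 2.68, 9.38 and 4.49, and the ranges overlapped. The fall of 1.36 ± 0.39 was called (limma, adjusted p = 0.0104), but was not called without 4-cell embryo 4 (a log2 change of -1.15), nor by edgeR or DESeq2. The 16-cell embryos had 4.98, 5.57, 4.94 and 9.51 copies.

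Cdk2 was read with and without an extra coding exon. Cdk2 lies at chr10:128697939-128705031 on the minus strand and overlaps Pmel on the opposite strand. The shorter annotated form encodes 298 residues, and the longer one keeps an additional exon of 144 bases, a multiple of 3, and encodes 346. The exon is shown because its inclusion is what separates the 2 coding forms (GENCODE vM21, GRCm38, chr10:128699976-128700119, minus strand, 5′ to 3′):
Cdk2 extra exon: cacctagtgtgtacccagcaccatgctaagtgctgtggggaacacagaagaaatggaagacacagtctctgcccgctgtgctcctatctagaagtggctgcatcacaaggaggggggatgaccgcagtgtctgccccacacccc

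Of the molecules that matched either form, the exon was kept in 3 of 29 at L2C (10.3%, exact 95% interval 2.19 to 27.4%) and in 10 of 18 at the 16-cell stage (55.6%, 30.8 to 78.5%). The counts were 9 with and 30 without at the 4-cell stage, 4 and 5 at the 8-cell stage, 1 and 6 at the 32-cell stage, 3 and 3 in blastocysts and 3 and 1 in mESC. At the 16-cell stage 7 of the 10 molecules with the exon came from embryo 2. The shorter form fell in copies from the 4-cell to the 8-cell stage, from 0, 3.28, 5.46, 7.94 and 8.62 to 0.485, 0.409, 1.94 and 0.841 (limma, adjusted p = 0.00128). Cdk2 had too few molecules to test the share per embryo.

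Among the members whose promoter could be searched, Cdk2 alone held an E2F motif. The promoters of Ccnd1, Ccnd2 and Ccne2 were not searched. The letters TTTCCCGC, TTTCGCGC, TTTGCCGC and TTTGGCGC were searched on both strands in the 250 bases before each RefSeq start. RefSeq windows were found for 6 of the 9 genes, 8 windows in all, and a match stood in the Cdk2 window alone; 1.86% of 32851 promoters hold one. The match, in capitals and on the opposite strand, begins at -140 from the RefSeq start. It is a match of letters and no evidence of a bound factor. The 228 bases before the first base read are from RefSeq GRCm38.p6, chr10:128705074-128705301, minus strand:
Cdk2 promoter: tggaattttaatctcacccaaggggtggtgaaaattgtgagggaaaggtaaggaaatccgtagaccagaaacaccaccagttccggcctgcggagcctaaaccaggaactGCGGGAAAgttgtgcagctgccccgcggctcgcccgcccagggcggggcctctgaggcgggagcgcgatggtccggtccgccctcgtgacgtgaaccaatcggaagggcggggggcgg

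From oocyte to the 16-cell stage the inhibitors followed opposite courses, with Cdkn1b read in few UMIs. Cdkn1a was not detected in any of the 10 oocytes, 0 UMIs of 2027809, which allows up to 0.148 copies. From L2C to the 16-cell stage it had 351 UMIs in 17 of 19 embryos, or 11.4 copies over the pooled UMIs, at least 76.7-fold higher than that limit. Cdkn1b was detected up to E2C and not from L2C to the 16-cell stage: it had 19 UMIs (4 in oocytes, 9 in zygotes and 6 at E2C) in 12 of the 24 oocytes, zygotes and E2C embryos, 0.358 copies of the pooled UMIs, and 0 UMIs of 3091981 in the 19 embryos from L2C to the 16-cell stage. Over this group, which leaves out the 32-cell cells, a count of 0 allows up to 0.0970 copies (3 UMIs). The pooled level before L2C was 3.69-fold that limit, without the counting error of its 19 UMIs. The remaining 2 Cdkn1b UMIs were in 32-cell cells, at 0.262 copies of their pooled UMIs, against 0.197 in oocytes.

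Cdkn1a levels differed widely between embryos of a stage. The E2C embryos had 0.547, 0, 0.948, 2.96 and 0 copies, and the L2C embryos 0 to 9.53 with a median of 6.28. The ranges overlapped because L2C embryo 1, the single shallow cell, had none. The rise of 2.05 ± 0.44 on the log2 scale was called (n = 5 and 6, limma, adjusted p = 5.98e-05). The 4-cell embryos had 11.4, 0, 7.82, 4.19 and 16.0 copies, the 8-cell embryos 20.7, 11.97, 3.17 and 5.70, and the 16-cell embryos 16.8, 12.5, 3.43 and 3.75. At both later stages the embryos 1 and 2 were above the embryos 3 and 4. In single cells it ran from 0 to 38.4 (median 19.6) at the 32-cell stage and from 0 to 16.0 (median 4.57) in blastocysts, and it was not detected in the 5 mESC.

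Sister blastomeres also differed in Cdkn1a. In 8-cell embryo 1 the 8 cells ran from 9.15 to 60.4 copies, and in 16-cell embryo 1 the 11 cells ran from 0 to 44.5 (0 to 21 UMIs). In 16-cell embryo 2 the 15 cells ran from 0 to 42.1 (0 to 17 UMIs).

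Cdkn1a molecules began at different promoters. Cdkn1a lies at chr17:29090976-29100727 on the plus strand. Most molecules, 351 UMIs, began at the downstream start, between 29093770 and 29093775, and 36 began at the upstream start, at 29090904 or 29090955. Of these 36, the 25 from 29090955 held the whole coding region. The 11 from 29090904 were a short form that ended at 29091926 and held no complete coding region. The upstream counts that follow include both forms, so they are not shares of coding molecules alone. The upstream start had 0 of 83 UMIs from zygote to the 4-cell stage, which allows up to 3.61%, and 36 of 340 from the 8-cell stage to the blastocyst, 10.6% (exact 95% interval 7.53 to 14.4%). By stage it had 11 of 87 at the 8-cell, 8 of 139 at the 16-cell, 10 of 84 at the 32-cell stage and 7 of 30 in blastocysts. The upstream UMIs were in the embryos 1 and 2 of both stages that name embryos, 8 of 48 and 3 of 24 at the 8-cell and 6 of 61 and 2 of 73 at the 16-cell stage. The embryos 3 and 4 had 0 of 2 and 0 of 13 at the 8-cell and 0 of 2 and 0 of 3 at the 16-cell stage, too few to show such a share, and no test over embryos was made. Another 36 UMIs belonged to a 2-exon form that began at 29098142 and held the whole coding region. Both promoters are shown because molecules were read from each of them (RefSeq GRCm38.p6, plus strand, chr17:29090729-29090903 and chr17:29093519-29093768); neither holds one of the E2F letters above.
Cdkn1a upstream promoter: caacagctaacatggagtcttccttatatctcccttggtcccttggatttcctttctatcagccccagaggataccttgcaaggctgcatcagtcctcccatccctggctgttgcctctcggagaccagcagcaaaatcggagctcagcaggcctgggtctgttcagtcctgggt
Cdkn1a downstream promoter: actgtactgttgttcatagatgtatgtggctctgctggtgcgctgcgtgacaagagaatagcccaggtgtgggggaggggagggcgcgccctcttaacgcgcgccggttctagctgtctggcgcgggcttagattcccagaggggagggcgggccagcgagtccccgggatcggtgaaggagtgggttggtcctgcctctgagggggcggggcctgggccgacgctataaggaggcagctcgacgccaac

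Nearly all Cdkn1a molecules ended soon after the stop codon. The main isoform runs 207 bases past the stop of the 159-residue coding region. The isoform that reaches the annotated gene end runs 1329 bases past it and had 19 of 423 UMIs, 4.49% (exact 95% interval 2.73 to 6.93%). Its last 30 bases held AATAAA, and those of the main isoform held neither AATAAA nor ATTAAA. Of the 20 bases after the main end 10 were A, and whether it is a true transcript end was not tested.

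Over the stages as a whole, the comparisons that skip a stage gave the same picture with shared embryos. From zygote to L2C 4 of 6 were called (49.5% of all genes): Ccne1 higher by 3.46, Cdk2 by 3.03, Cdkn1a by 2.60 and Cdk4 by 2.38 on the log2 scale. Between L2C and the 8-cell stage 4 of 6 were called (26.3% of all genes). There Cdk4 was higher by 1.30 (limma, adjusted p = 0.00581) and Ccnd3 by 1.31 (0.0303), and Ccne2 was lower with -1.42 (0.00406) and Cdk2 with -1.16 (0.0160). The Ccnd3 call was lost without 8-cell embryo 3 or 4 and the Cdk2 call without 8-cell embryo 1 or 2. From oocyte to the 16-cell stage all 6 were called (50.8% of all genes), with Cdk4 at 3.59, Cdkn1a at 3.52, Ccne1 at 2.87, Cdk2 at 2.60, Ccnd3 at 2.23 and Ccne2 at -2.58.

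At the isoform level 28 of the 61 isoforms were tested among 29409. From E2C to L2C 10 of 28 were called, 9 higher and 1 lower, against 26% of all isoforms. From L2C to the 4-cell stage 1 was called (4.29% of all) and from the 4-cell to the 8-cell stage 4 (7.93%): Ccnd3 and Cdk4 with 1 isoform higher each, and Cdk2 and Ccne2 with 1 lower each. The Ccnd3 isoform was the 5-exon form, at 0.985, 0, 0, 1.46 and 2.10 copies in 4-cell and 4.77, 3.48, 11.1 and 15.9 in 8-cell embryos, without overlap (limma, adjusted p = 0.0450). At oocyte to zygote (1.48% of all), zygote to E2C (5.18%) and 8-cell to 16-cell (1.97%), limma called 0 of 28, edgeR and DESeq2 called 0, and 0, 0 and 5 had an unadjusted p under 0.05. The share of a gene's isoforms could be tested for Cdk4, Ccne1 and Ccnd3 (19 isoforms), and limma called 0 of the 3 genes at each step. Of all 2641 genes tested for shares, 0.379%, 4.09%, 21.8%, 1.7%, 0.871% and 0.227% were called at the 6 steps in order. The 19 isoforms had 0, 2, 3, 3, 1 and 0 unadjusted p-values under 0.05 over the 6 steps, and edgeR and DESeq2 were not run on shares.

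Over all members 26 isoforms with 2402 of 3036 UMIs, 79.1%, held a complete annotated coding region. By gene it was 97.4% for Cdkn1a, 86.4% for Cdk2, 81.4% for Ccnd3, 77.7% for Ccne2, 74.6% for Cdk4 and 72.4% for Ccne1.

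The other genes of the pathway were read from fixed lists, whose counts stand against 48.4% of all genes called from E2C to L2C and 15% from the 4-cell to the 8-cell stage. Among other cyclins and kinases of the cycle, 2 of 9 tested rose and 2 fell from E2C to L2C, a share near that of all genes. Cdk1, the kinase of mitosis, rose by 3.74 on the log2 scale (4.70 to 68.5 copies, limma, adjusted p = 1.86e-15), and Cdk7, which activates Cdk1 and Cdk2, rose by 2.48 (2.28 to 16.5, adjusted p = 2.64e-07). Ccnh, the cyclin of Cdk7, rose a step later, from L2C to the 4-cell stage, by 2.19 (3.09 to 10.1, adjusted p = 0.0129).

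Among other inhibitors, 3 of 4 tested rose and 1 fell from E2C to L2C. Cdk2ap1 and Cdk2ap2, both named for association with Cdk2, went opposite ways: Cdk2ap1 rose by 4.28 (4.15 to 95.4 copies, limma, adjusted p = 1.59e-14) and Cdk2ap2 fell by 2.22 (103.2 to 21.4, adjusted p = 1.71e-10). Cdkn1c, which encodes p57, went from 3.47 copies at the 4-cell stage to 0 at the 8-cell stage (adjusted p = 6.60e-05).

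Among the retinoblastoma proteins and E2F factors, 0 of 11 tested rose and 3 fell from E2C to L2C, a smaller share called than among all genes. E2f5 fell by 3.21 (89.2 to 11.6 copies, limma, adjusted p = 7.55e-11), Rbl1 by 2.03 (3.43 to 0.138, adjusted p = 9.15e-06) and Rb1 by 1.95 (14.9 to 5.21, adjusted p = 2.42e-05). Among the genes of cyclin turnover and p53, 2 of 13 tested rose and 5 fell, again near the share of all genes. Cul3 rose by 2.81 (3.58 to 30.7, adjusted p = 4.96e-08), while Skp1a and Cul1, parts of the ubiquitin ligase that marks cyclin E and p27, fell by 2.32 (54.3 to 10.2, adjusted p = 1.39e-07) and 2.10 (161 to 44.5, adjusted p = 9.07e-09). The median log2 fold changes at this step were 0.25 for the cyclins and kinases, 1.27 for the inhibitors, -0.47 for the retinoblastoma and E2F genes and -0.27 for the turnover genes. From the 4-cell to the 8-cell stage each of the 4 lists had 2 genes that fell and 0 that rose; 2 of 13 and 2 of 11 are near the 15% of all genes.

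The genes whose course was most like that of each member were named by Pearson's r of log2(copies + 1) over the 43 embryos, as a description in which all genes share libraries and stages. Cdk4 was closest to Psat1 (0.97) and Impdh2 (0.96), Cdk2 to Plaat3 (0.95) and Supt4a (0.94), Ccne1 to Mta2 (0.94) and Umps (0.94), and Cdkn1a to Gpat3 (0.92) and Alad (0.91). Ccne2 was closest to Cenpe (0.86) and Fpgs (0.84). Ccnd3 had the least similar neighbours, Scarb2 (0.76) and Epas1 (0.73).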

How the data were processed

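Single oocytes, zygotes, blastomeres and mESC were sequenced as full-length cDNA in runs 1 to 3, and intact and split oocytes in run 4. The authors called consensus reads and used scISA-Tools for barcodes and UMIs, minimap2 for mapping to mm10, gffcompare for gene assignment, cDNA_Cupcake for collapsing and SQANTI3 for filtering isoforms, and dropped those in fewer than 5 cells. They deposited the gene and isoform tables as normalized values, the CPM divided by 10 (copies per 100,000 UMIs), not divided by length. The isoform totals were taken before rare isoforms were removed, so isoform values of a cell sum to 84419 to 97144. Gene UMIs without a kept isoform are missing from all isoform counts and shares. Run 4 was deposited by the authors as isoform UMI counts without normalization. Values above 0 divided by the smallest one of the cell came out whole within 0.1 (100% in every cell), and these recovered counts gave depth (4985 to 389775 UMIs per cell), floors and the edgeR and DESeq2 alternatives. Intervals and floors (3 UMIs) cover counting error only.

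Each embryo, as named in the table headers, got the mean of its cells. The 43 embryos entered 1 limma 3.58.1 fit (trend, array weights, R 4.3.3) on log2(copies + 1), so fold changes of low genes are understated. Features at 1 copy or more in at least 4 embryos were tested, called where the log2 fold change was beyond 1 or -1 with p below 0.01 before adjustment, and adjusted by Benjamini-Hochberg over all features. Isoform shares used the same isoforms, for genes with at least 2 of them and a value in 3 or more embryos per stage, on the arcsine square root scale, called at a gene p under 0.01 and an isoform p under 0.05, both adjusted. Whether embryos of a stage came from separate litters is not stated, so p-values measure the spread between these embryos. The alternatives were another pseudocount (0.5 or 5), a filter of 5 copies or none, no array weights, summed UMIs of an embryo, the run as a block for oocytes and zygotes, TMM scaling, edgeR 4.0.16, DESeq2 1.42.0, thinning to 5000 UMIs per cell, an adjusted p under 0.05 and leaving out each embryo of groups of 5 or fewer; for shares, untransformed values, 5 or more UMIs and, chosen after seeing the data, presence in the 2 stages compared alone. The fit was tested on simulated counts.

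All 9 members are named, and of each list of related genes up to 3 called genes with the largest change in an adjacent comparison, plus the 2 genes most like each member with a mean of 2 copies or more. The members and lists were chosen with earlier results of these data known. Cells are not tied to the 4 deposited samples, which form 1 group. Isoforms were matched to GENCODE vM21 (GRCm38) by their introns.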

Additional observations from a re-analysis of the deposited data

Results flagged for a closer look

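In groups of 4 to 10 embryos, the highest or lowest embryo was set against the rest with Dixon's ratio on the copies. Of 31 groups of the tested genes, 3 passed its 95% limit; chance alone would pass about 1 in 20. Ccnd3 was 8.77 copies in oocyte 8, and the next of the 10 oocytes was at 3.33. Ccne1 was 53.7 copies in 16-cell embryo 4, and the next of the 4 was at 19.3. Cdk2 was 9.51 copies in the same embryo, and the next was at 5.57. This embryo was 1 of the 2 shallow ones of its stage, with 82203 UMIs, and the part of depth in these values was not tested. Of 14 groups of isoform classes, 1 passed: the Ccnd3 2-exon isoforms were at 12.9 copies in 16-cell embryo 2 and at 0 in the other 3. That pattern was found after the values were seen, and with the other 3 all at 0 the ratio is 1 whatever the height of embryo 2. Passing the limit was therefore fixed in advance and adds nothing to the counts.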

How the results depend on the processing

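Of the called counts of members over settings, 234 stayed within 1.5 times and 36 moved; of the single genes and isoforms, 429 kept direction and side of the limit, 85 were no longer called and 1 turned. At E2C to L2C the 5 genes called became 3 with a pseudocount of 5 and 1 after thinning to 5000 UMIs per cell, where 1 UMI is 20 copies. Between L2C and the 4-cell stage the 1 became 0 with a pseudocount of 0.5 or 5, with thinning and with an adjusted p under 0.05, and 0 to 1 with an embryo left out (0 without 4-cell embryo 5). From the 4-cell to the 8-cell stage the 3 became 1 with a pseudocount of 5, 0 with thinning and 1 to 3 with an embryo left out (1 without 4-cell embryo 4). From zygote to L2C thinning gave 2. From L2C to the 8-cell stage a pseudocount of 5 and thinning gave 0, and no array weights and DESeq2 gave 2. Thinning turned Ccne2 from oocyte to the 16-cell stage to 0.50.

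The isoforms called at E2C to L2C became 1 with a pseudocount of 5, 5 with a filter of 5 copies and 3 with DESeq2. From L2C to the 4-cell stage they were 3 with a pseudocount of 0.5, 0 with the filter of 5, 2 without weights, 4 with edgeR, 0 with DESeq2 and with an adjusted p under 0.05, and 0 to 3 with an embryo left out (0 without 4-cell embryo 4, 2 without 1 or 5, 3 without 2 or 3). From the 4-cell to the 8-cell stage they were 0 with a pseudocount of 5, 2 with the filter of 5, 2 with edgeR and 1 with DESeq2. From the 8-cell to the 16-cell stage they were 1 with a pseudocount of 0.5 and 0 to 1 with an embryo left out (1 without 16-cell embryo 3 or 4). The cause of these moves was not tested. TMM scaling moved the median of all genes at E2C to L2C by -0.14 and from the 4-cell to the 8-cell stage by 0.16 on the log2 scale. Few UMIs per cell limit Ccnd1, Ccnd2, Cdkn1b and the isoform shares of Cdk2, Ccne2 and Cdkn1a. No paired analysis was possible because the embryo numbers only name embryos and the deposited samples form 1 group.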

Other observations

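The split oocytes of the separate run can be set beside its intact ones by member. Ccne2 had a median of 10.7 copies in the 4 intact oocytes (7.67 to 16.0), 7.58 in the 6 1/2 oocytes (4.83 to 14.6) and 8.95 in the 6 1/4 oocytes (2.92 to 15.6). Ccnd3 had medians of 2.75, 2.70 and 2.36 copies and Ccne1 of 0.400, 2.11 and 0.866. Over these 16 libraries Cdk4 had 3 UMIs, Cdkn1a 2 and Cdk2 1, and Ccnd1, Ccnd2 and Cdkn1b had no isoform UMI.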
